A study of Mus musculus with 6 samples.

Results

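Ribosome biogenesis is the assembly of the small (40S) and large (60S) ribosomal subunits, which begins in the nucleolus on ribosomal RNA precursors made by RNA polymerase I. Small nucleolar ribonucleoproteins (snoRNPs) modify the precursor, and separate sets of assembly factors then cut, fold and package the RNA of each subunit. The transcription factor MYC is known to drive many genes of this programme, and resting T cells switch it on when they are activated and start to grow. The 44 genes described here code for MYC, snoRNP proteins, small-subunit factors, large-subunit factors and abundant nucleolar proteins. They were taken by gene name from a table of 21139 genes, and all 44 were found in it.

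The genes were measured by RNA sequencing in 6 libraries of CD4+ T cells from the spleen of C57BL/6J mice, all stimulated over 2 days through CD3 and CD28 by antibodies. In 3 libraries the cells had medium alone, and in 3 they had CpdA, an agonist of the fatty acid receptor Gpr120. The label gives its dose as 20 with a unit written as "µm", read here as µM. The sources used here do not give the age and sex of the mice or the vehicle in the medium group. No label says that replicates are separate mice or cultures, so every p-value measures the spread between these libraries, which may be technical. The design asks which genes differ between cells given the agonist and cells left without it, at 1 dose and 1 time.

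Library totals ran from 20247761 to 25952169 counts. Levels are in CPM, counts scaled to the library total, and levels compared between genes are FPKM, which also divides by gene length. The defining T cell genes Cd4 (380.2 and 333.8 CPM) and Cd3e (200.6 and 167.7 CPM; medium and CpdA means) were high, the CD8 gene Cd8a (1.25 and 1.67 CPM) was low, and the NK cell gene Ncr1 had 0.0287 and 0.0156 CPM.

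With CpdA, 39 of the 44 genes rose, 1 fell and 4 did not pass the test (edgeR's quasi-likelihood test over 13507 genes, adjusted p under 0.05). Over all tested genes 16.5% rose and 16.7% fell, 33.2% in either direction. Among the 6514 genes at least as abundant as the lowest of the 44, 26.2% rose and 22.0% fell. The shifts were modest, with a median log2 fold change of 0.29 against 0.0004 over all tested genes, and ran from -0.12 for Rrp1b to 0.55 for Grwd1. At least 1.25-fold higher levels were found for 17 of the 44, and for 6.73% of all tested genes. The names were proposed with results of these same libraries in view, so these counts and medians describe the genes and do not serve as independent evidence of a direction. All 44 passed the filter on low counts, with 338 to 64462 counts in a library. In bulk RNA, more cells expressing a gene and more RNA per cell cannot be told apart.

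**Figure D1:**
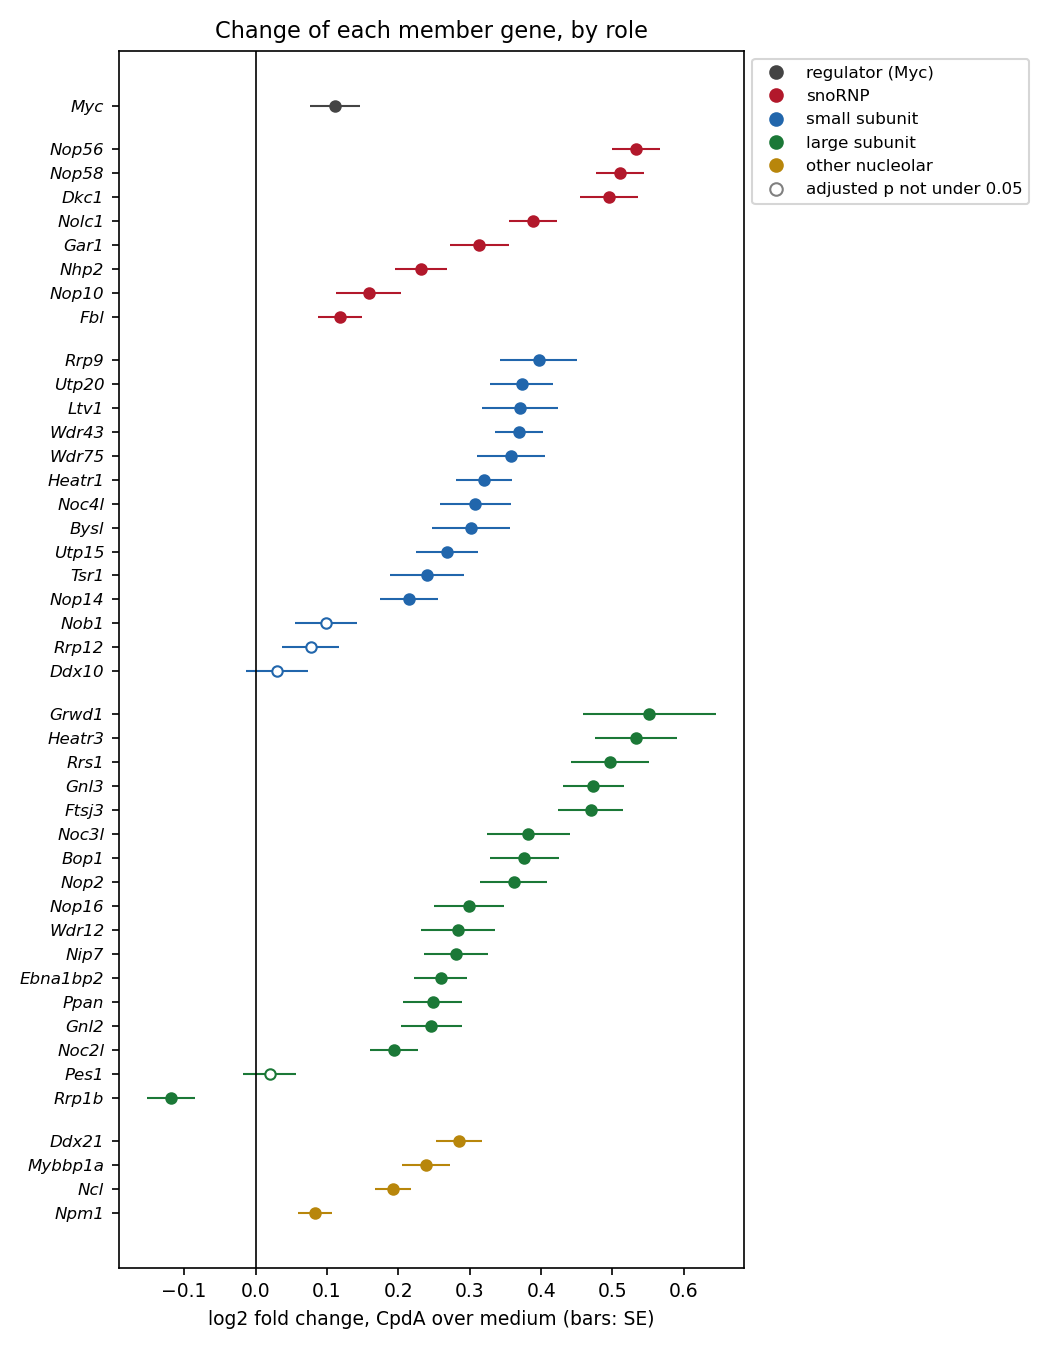
Log2 fold change of CpdA over medium (x axis, bars are SE) for each of the 44 genes, grouped and coloured by role; open circles are the 4 genes that did not pass the test. Most points lie between 0.2 and 0.55, with Rrp1b alone below 0.

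Myc, which codes for the regulator, was only a little higher. Its levels were 234, 255 and 239.5 CPM in the medium libraries and 271, 247 and 274 CPM in the CpdA libraries. The groups overlapped, because CpdA replicate 2 lay below medium replicate 2. The log2 fold change was 0.11 ± 0.04 (SE), and the gene passed the test over all genes (edgeR adjusted p = 0.0136). It missed the threshold without medium replicate 1 (edgeR adjusted p = 0.0927), medium replicate 3 (0.0609), CpdA replicate 1 (0.0702) or CpdA replicate 3 (0.106).

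Of 13 other genes of the MYC network 2 rose, 6 fell and 5 did not pass, with a median log2 fold change of -0.11. The share that rose was 15.4%, near the 16.5% of all tested genes, and the share that fell was 46.2% against 16.7%. MAX is the partner that MYC needs to bind DNA, and the MXD and MXI1 proteins compete with MYC for it. The gene Max was among the 6 that fell, from 98.6 ± 1.6 to 91.0 ± 1.5 CPM (SD, n = 3). Its log2 fold change was -0.13 (edgeR adjusted p = 0.01). Mxd3 did not pass (log2 fold change 0.14, edgeR adjusted p = 0.273). Mxd4 fell by 0.69 ± 0.06 on the log2 scale (SE, edgeR adjusted p = 2.83e-11), from 57.0 ± 5.4 CPM (SD, n = 3) to 35.5 ± 2.4 CPM. Mxd1 fell from 92.2 ± 4.0 to 72.5 ± 0.8 CPM and Mxi1 from 113.8 ± 1.5 to 94.96 ± 3.38 CPM (SD, n = 3), log2 fold changes of -0.35 and -0.27. The members of this list that rose were Mlx, another MAX-like protein (log2 fold change 0.22), and Mycn, a relative of Myc with only 2.15 CPM in medium (0.62). Without CpdA replicate 1, 1 of the list rose.

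MYC and MAX bind the E-box, the 6 bases CACGTG, which other factors of the same kind bind too. The promoter stretches that hold it are shown as a sequence feature of these genes. The genes were named with results of these libraries in view, so the share with a match is also a description. RefSeq promoter entries (build GRCm38.p6, 250 bases before to 50 after each start site) were found for 37 of the 44 genes, and 8 of the 37 (21.6%; exact 95% interval 9.83% to 38.2%, counting error only) held a match. The hexamer reads the same on both strands. In capitals is the hexamer, within 30 bases of the gene's own strand written 5′ to 3′:

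Grwd1: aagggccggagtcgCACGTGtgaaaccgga

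Ltv1: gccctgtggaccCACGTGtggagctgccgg

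Mybbp1a: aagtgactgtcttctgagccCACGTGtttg

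Nop2: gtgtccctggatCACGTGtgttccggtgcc

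Pes1: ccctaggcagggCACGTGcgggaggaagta

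Tsr1: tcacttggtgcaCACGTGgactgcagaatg

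Utp20: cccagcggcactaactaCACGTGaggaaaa

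Wdr43: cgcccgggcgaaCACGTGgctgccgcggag

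The windows lie at chr7:45830740-45830769 (minus strand) for Grwd1, chr10:13193092-13193121 (minus) for Ltv1, chr11:72441347-72441376 (plus) for Mybbp1a and chr6:125131811-125131840 (plus) for Nop2. Those of the others lie at chr11:3963965-3963994 (plus) for Pes1, chr11:74898092-74898121 (plus) for Tsr1, chr10:88826765-88826794 (minus) for Utp20 and chr17:71616220-71616249 (plus) for Wdr43. Among tested genes with an entry 11.8% (1120 of 9503) held the hexamer, and 8.09% of all 27025 genes of the promoter table did. In 139 other ribosome biogenesis genes, listed by function,, the share was 18.6% (22 of the 118 with an entry).

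The place of the matches was uneven, a split by position that was made after the sequences were seen. In 7 of the 8 genes the hexamer began 3 to 41 bases into the transcribed side of the start site (the first transcribed base counted as 1), and in Nop2 it began before the start site, at position -60. A match after the start site was present in 18.9% of the 37 genes, in 9.32% of the other ribosome biogenesis genes and in 1.94% of tested genes. None of the 7 snoRNP genes with an entry held the hexamer. The 8 genes with a match had log2 fold changes from 0.02 (Pes1) to 0.55 (Grwd1), with a median of 0.37, and the 29 without had a median of 0.30, so the range of the genes with the hexamer lay within that of the genes without it except for Grwd1. A match of letters is not evidence that a factor binds there.

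The snoRNP genes all rose, 8 of 8, with a median log2 fold change of 0.35. Box C/D snoRNPs, which guide methylation of ribosomal RNA, are built on NOP56, NOP58 and the methyltransferase fibrillarin (Fbl). Nop56 (chromosome 2, 130274430 to 130279313, plus strand, GRCm38) had 207, 229 and 223 CPM in the medium libraries and 332, 314 and 316 CPM with CpdA. Every CpdA library was above every medium library, and the log2 fold change was 0.53 ± 0.03 (SE, edgeR adjusted p = 9.98e-16). Nop58 (chromosome 1, 59684971 to 59719044, plus strand) had 143.8, 147 and 143.0 CPM in medium and 215, 197 and 210.4 CPM with CpdA. The CpdA values again lay wholly above, with a log2 fold change of 0.51 ± 0.03 (SE).

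Fbl (chromosome 7, 28169748 to 28179269, plus strand) had 232, 245 and 239.5 CPM in medium and 266, 253 and 265 CPM with CpdA. These groups did not overlap either, but the log2 fold change was 0.12 ± 0.03 (SE, edgeR adjusted p = 0.0025), the smallest of the snoRNP genes.  The ratio of Nop56 to Fbl counts within a library, which does not depend on library scaling, was 0.893, 0.936 and 0.933 in medium and 1.25, 1.24 and 1.19 with CpdA. The ratio of Nop58 to Fbl went from 0.605 ± 0.012 to 0.794 ± 0.014 (SD, n = 3). Both ratios were higher in each CpdA library than in any medium library. Per length, Fbl was the highest of the 3 in medium at 206 FPKM, against 60.6 FPKM for Nop56 and 15.2 FPKM for Nop58. These levels depend on the deposited lengths. That of Nop58, 9507 bases, is its longest coding transcript, but that of Nop56, 3627 bases, is 1.93 times its longest coding transcript (1877 bases), on which Nop56 would have 117 FPKM. No other of the 44 genes differed in this way by over 1.5 times. This comparison cannot show whether the longest coding transcript is the one in use. The deposited lengths of Wdr12 (10012 bases) and Ncl (8202 bases) also equal their longest coding transcripts. If a shorter transcript prevails, the FPKM of Nop58, Wdr12 or Ncl is too low. These pairs, like the other pairs of genes set against each other, were chosen after the values were seen.

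**Figure D2:**
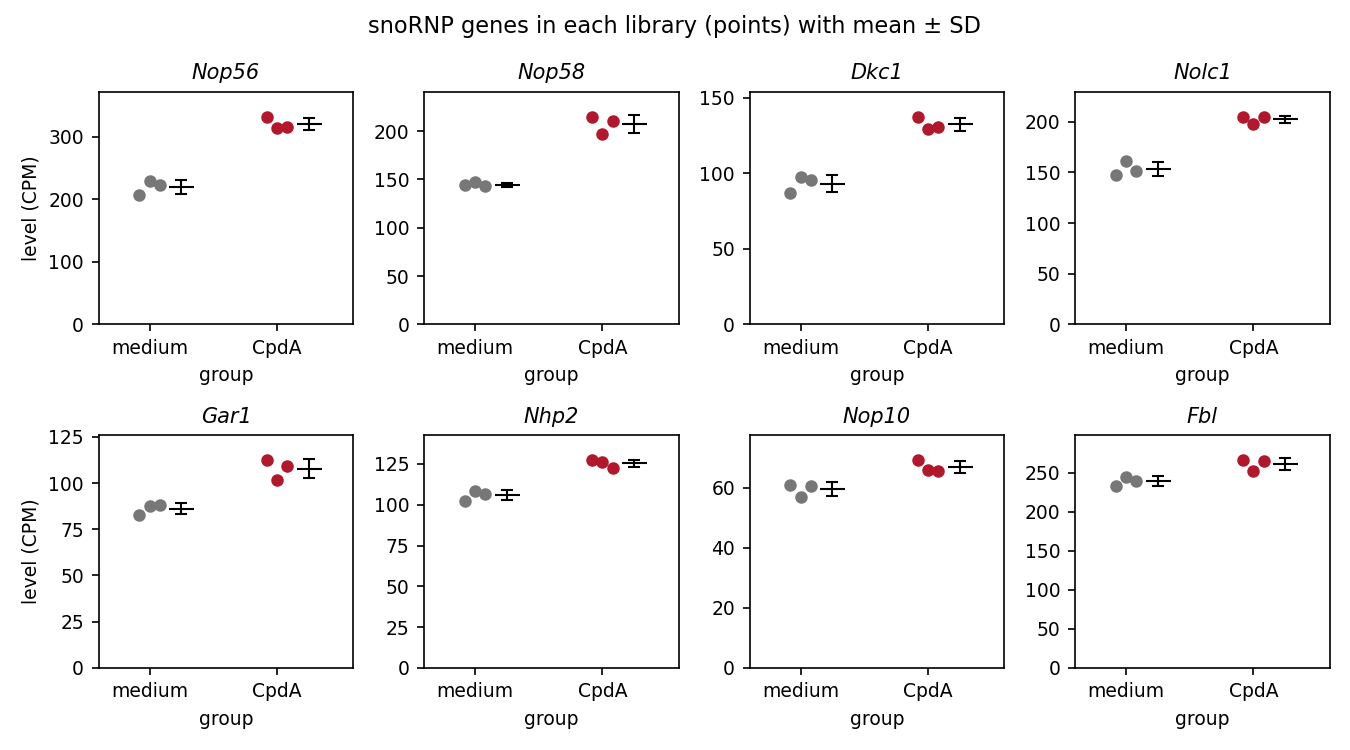
Level in CPM (y axes start at 0) of the 8 snoRNP genes in each medium (grey) and CpdA (red) library, with the mean and SD of 3 libraries beside the points. In all 8 panels the CpdA points lie above the medium points, with a wide gap for Nop56 and a narrow one for Fbl.

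Box H/ACA snoRNPs, which guide the conversion of uridine to pseudouridine, hold the enzyme dyskerin (Dkc1) with GAR1, NHP2 and NOP10. Dkc1 (chromosome X, 75095854 to 75109777, plus strand) had 86.8, 97.5 and 95.4 CPM in medium and 137, 129 and 130.8 CPM with CpdA. The groups were well apart, with a log2 fold change of 0.50 ± 0.04 (SE, edgeR adjusted p = 9.44e-13). Its partners rose less, with log2 fold changes of 0.31 for Gar1, 0.23 for Nhp2 and 0.16 for Nop10. The ratio of Dkc1 to Nop10 counts was 1.57 ± 0.15 in medium and 1.98 ± 0.01 with CpdA (SD, n = 3), with no overlap of the libraries. Nolc1, a chaperone of both kinds of snoRNP, rose by 0.39 on the log2 scale.

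Several of the 44 genes also carry snoRNA genes inside their own bodies. In the GENCODE M21 annotation of GRCm38, 8 of the 44 (18.2%) held at least 1 snoRNA gene on the same strand, against 1.83% of 11940 tested protein-coding genes. They were Nop56 with 5, Nop58 with 4, Wdr43, Gnl3 and Ncl with 3 each, Tsr1 and Ppan with 2 each and Dkc1 with 1. Their log2 fold changes ran from 0.19 (Ncl) to 0.53 (Nop56). Of a separate list of noncoding host genes, whose introns release snoRNAs, 8 of 11 tested rose and 0 fell, with a median log2 fold change of 0.26 (Snhg3 and Snhg8 were not analysed here). Snhg4 rose most, from 19.5 ± 1.3 to 27.6 ± 0.4 CPM (SD, n = 3; log2 fold change 0.49), followed by Snhg15 (0.35) and Snhg5 (0.33).

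Among small-subunit factors 11 of 14 rose, 0 fell and 3 did not pass, with a median log2 fold change of 0.30. The largest shift was that of Rrp9 (chromosome 9, 106475963 to 106485424, plus strand), the protein particular to the U3 snoRNP that organises early cleavage. Its levels were 44.3, 51.9 and 46.2 CPM in medium and 66.0, 58.3 and 65.0 CPM with CpdA. The CpdA libraries all lay above, and the log2 fold change was 0.40 ± 0.05 (SE). Utp20 (chromosome 10, 88746607 to 88826814, minus strand), a very large scaffold of the early particle, had 56.0, 58.0 and 60.1 CPM in medium and 74.9, 76.0 and 76.2 CPM with CpdA. The CpdA libraries were close together and above every medium library (log2 fold change 0.37 ± 0.04, SE). Ltv1 (chromosome 10, 13178640 to 13193137, minus strand), a factor of the late particle on its way to the cytoplasm, had 38.2, 42.7 and 39.2 CPM in medium and 53.9, 52.8 and 49.9 CPM with CpdA. Its groups were likewise apart (log2 fold change 0.37 ± 0.05, SE).

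The subunits of the UTP-A complex, which binds the growing precursor and is needed for its transcription, rose by similar amounts. Wdr43, Wdr75, Heatr1 and Utp15 rose by 0.37, 0.36, 0.32 and 0.27 on the log2 scale. The ratio of Heatr1 to Wdr43 counts was 0.778 ± 0.040 in medium and 0.753 ± 0.011 with CpdA (SD, n = 3), and the libraries overlapped. Noc4l and its binding partner Nop14 rose by 0.31 and 0.22. The late factors Bysl and Tsr1 rose by 0.30 and 0.24.

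The 3 small-subunit genes that did not pass included further late factors. Nob1 codes for the nuclease that makes the final cut of 18S ribosomal RNA. It had 76.8, 82.8 and 82.9 CPM in medium and 91.1, 82.8 and 88.0 CPM with CpdA, so the groups met at CpdA replicate 2 (log2 fold change 0.10, edgeR adjusted p = 0.075). It passed without that library (0.14, edgeR adjusted p = 0.0211). Rrp12, a factor of subunit export, had 81.9, 83.6 and 82.0 CPM in medium and 89.5, 86.0 and 87.4 CPM with CpdA. The groups did not overlap, but the log2 fold change of 0.08 missed the threshold (edgeR adjusted p = 0.139). The helicase gene Ddx10 had 74.3, 81.9 and 74.2 CPM in medium and 80.0, 76.9 and 80.0 CPM with CpdA, with the groups mixed (log2 fold change 0.03, edgeR adjusted p = 0.652).

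Among large-subunit factors 15 of 17 rose, 1 fell and 1 did not pass, with a median log2 fold change of 0.30. The 3 largest shifts were in genes that handle single ribosomal proteins or the 5S particle. Grwd1 (chromosome 7, 45825227 to 45830944, minus strand), a chaperone of the ribosomal protein L3, had 16.7, 23.0 and 19.4 CPM in medium and 32.3, 26.1 and 29.5 CPM with CpdA. It rose by 0.55 ± 0.09 (SE), but its medium libraries varied most of the 44 genes, with a coefficient of variation of 16.1% against a median of 3.92%. Heatr3 (chromosome 8, 88137855 to 88172027, plus strand), which carries the ribosomal protein L5 to the nucleus, had 28.4, 32.7 and 30.5 CPM in medium and 46.4, 43.5 and 43.8 CPM with CpdA. Every CpdA library was above medium (log2 fold change 0.53 ± 0.06, SE). Rrs1 (chromosome 1, 9545408 to 9547455, plus strand), needed to place the 5S particle in the large subunit, had 33.2, 38.2 and 37.1 CPM in medium and 53.5, 49.8 and 51.2 CPM with CpdA. It also had no overlap (log2 fold change 0.50 ± 0.05, SE), and the ratio of Heatr3 to Rrs1 counts was 0.845 ± 0.018 in medium and 0.866 ± 0.010 with CpdA (SD, n = 3; libraries overlapping).

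PES1, BOP1 and WDR12 form the PeBoW complex of the early large subunit, and their genes did not move together. Bop1 rose by 0.38 and Wdr12 by 0.28 on the log2 scale. Pes1 (chromosome 11, 3963975 to 3980004, plus strand) had 115.7, 120.3 and 116.8 CPM in medium and 117.0, 115.8 and 127 CPM with CpdA. Only CpdA replicate 3 stood above the medium libraries, and the log2 fold change of 0.02 did not pass (edgeR adjusted p = 0.737). The ratio of Bop1 to Pes1 counts was 0.595, 0.656 and 0.640 in medium and 0.865, 0.770 and 0.794 with CpdA, which do not overlap.

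Rrp1b (chromosome 17, 32036100 to 32062865, plus strand), a nucleolar protein that brings a phosphatase to the early large subunit, was the gene that fell. It had 149.8, 149.7 and 151 CPM in medium and 142, 137 and 139 CPM with CpdA. All CpdA libraries were below medium, by a log2 fold change of -0.12 ± 0.03 (SE, edgeR adjusted p = 0.00465).

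The other large-subunit factors rose by 0.19 to 0.47 on the log2 scale. The GTPase genes Gnl3 and Gnl2 rose by 0.47 and 0.25, and the RNA methyltransferase genes Ftsj3 and Nop2 by 0.47 and 0.36. Noc3l and its partner Noc2l rose by 0.38 and 0.19. The assembly factors Nop16, Nip7, Ebna1bp2 and Ppan rose by 0.30, 0.28, 0.26 and 0.25. For each of these the CpdA and medium libraries did not overlap.

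The genes of the 4 abundant nucleolar proteins all rose, by less than most of the assembly factors. Ncl (nucleolin, an RNA-binding protein of the nucleolus) had 1573, 1661 and 1636 CPM in medium and 1871, 1873 and 1856 CPM with CpdA, a log2 fold change of 0.19 ± 0.03 (SE). Npm1 (nucleophosmin, a histone and ribosome chaperone) had 2324, 2259 and 2361 CPM in medium and 2471, 2484 and 2450 CPM with CpdA, a log2 fold change of 0.08 ± 0.02 (SE, edgeR adjusted p = 0.00669). For both, the groups were apart although the shift was small. The helicase gene Ddx21 had 322, 360.3 and 344 CPM in medium and 416, 417 and 428 CPM with CpdA (log2 fold change 0.29). Mybbp1a, a nucleolar binding partner of MYB, had 323, 355 and 351 CPM in medium and 415, 387 and 419.9 CPM with CpdA (0.24). Neither gene had overlapping groups.

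Across the 44 genes, those with a higher level per length tended to have a smaller change. The correlation between log2 FPKM in medium and log2 fold change was r = -0.386 (Spearman rho = -0.411; 44 genes measured in the same 6 libraries, given as a description). On the lengths of the longest coding transcripts it was r = -0.369 (rho = -0.400). Those lengths can exceed that of the transcript in use, so this value does not remove the dependence on length. Levels ran from 4.43 FPKM for Wdr12 to 1417 FPKM for Npm1. The place of Wdr12 depends on its deposited length of 10012 bases. In CPM its medium level (44.3) was above those of Grwd1 (19.7) and Heatr3 (30.5). The trend was loose, since Rrp12, Ddx10 and Rrp1b, with some of the smallest changes, had levels in the middle of the range.

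**Figure D3:**
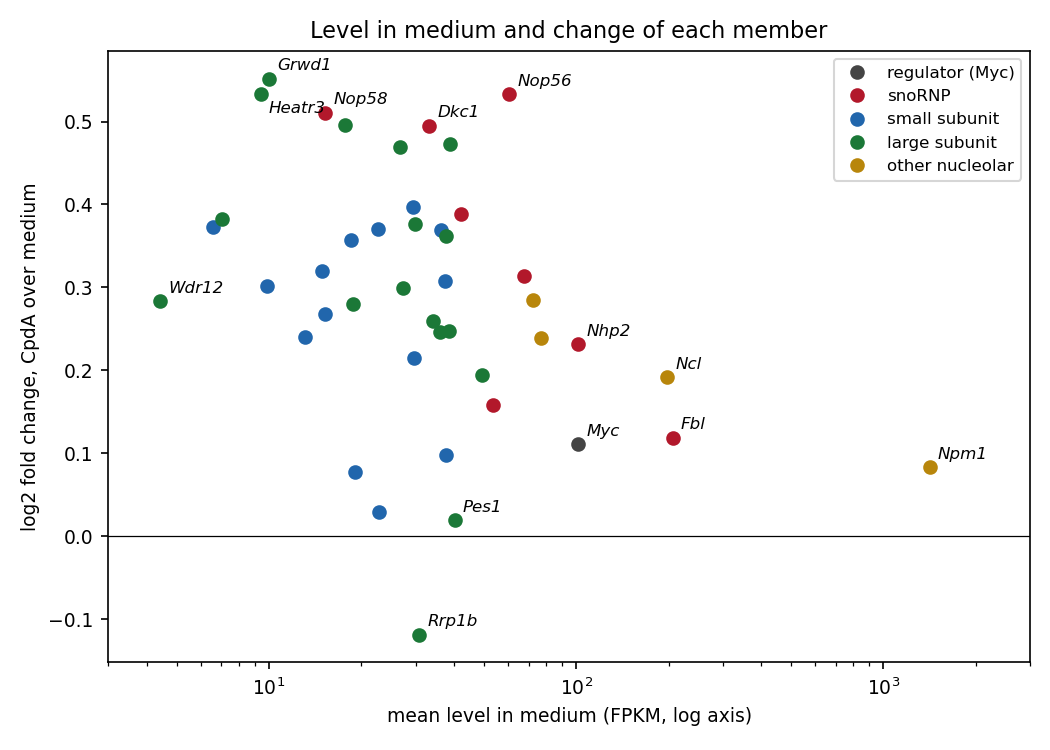
Mean level in the 3 medium libraries (x axis, FPKM, log scale) against log2 fold change of CpdA over medium (y axis) for each of the 44 genes, coloured by role. Npm1, Ncl and Fbl lie at the right with changes of 0.08 to 0.19, and Grwd1, Heatr3 and Nop58 lie at the upper left.

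Set side by side, the 3 assembly roles differed little. The median log2 fold changes of 0.35 (snoRNP, range 0.12 to 0.53), 0.30 (small subunit, 0.03 to 0.40) and 0.30 (large subunit, -0.12 to 0.55) had widely overlapping ranges. Summed levels went from 1102 ± 35 to 1425 ± 39 CPM for snoRNP genes, from 969.7 ± 33.1 to 1173 ± 32 CPM for small-subunit genes and from 1258 ± 39 to 1519 ± 50 CPM for large-subunit genes (SD, n = 3), ratios of 1.29, 1.21 and 1.21. The median of the snoRNP genes against medium was 0.40, 0.31 and 0.38 in the 3 CpdA libraries. That of the small-subunit genes was 0.34, 0.25 and 0.33, and that of the large-subunit genes 0.38, 0.27 and 0.32. The snoRNP median was the highest of the 3 in each CpdA library, by less than that median itself varied between the CpdA libraries. The order of the subunit medians changed with the libraries used.

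**Figure D4:**
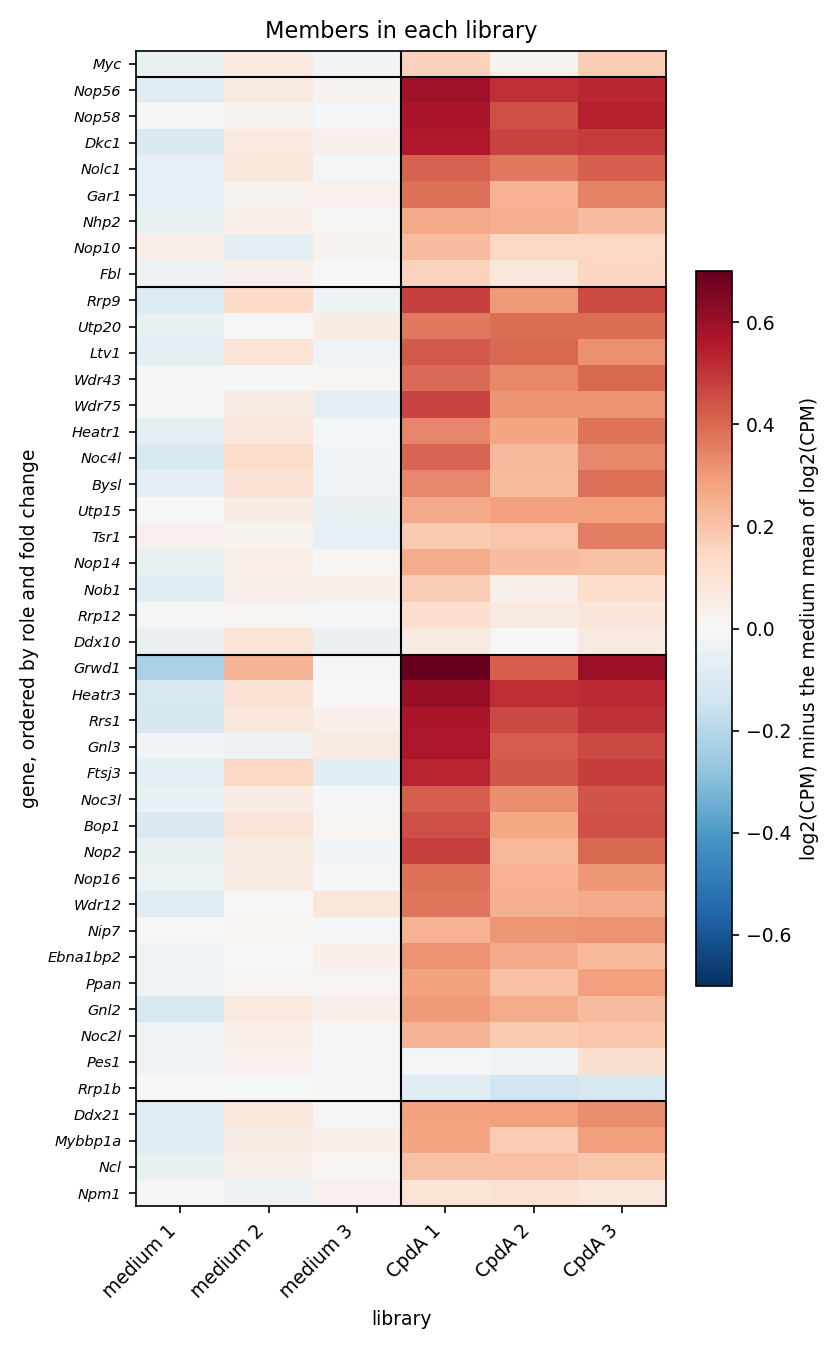
Each of the 44 genes (rows, by role and fold change) in each of the 6 libraries (columns); colour is log2 CPM minus the medium mean of log2 CPM. The CpdA columns are red for nearly all genes, with CpdA 2 the palest of them for most genes, and Rrp1b is blue.

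Libraries within a group also differed in a shared way. CpdA replicate 2 was the lowest CpdA library for 31 of the 44 genes, and CpdA replicate 1 the highest for 28. In medium, replicate 1 was the lowest for 32 genes and replicate 2 the highest for 32. The median of the 44 genes against medium was 0.34, 0.26 and 0.32 in CpdA replicates 1, 2 and 3, and -0.05, 0.05 and 0.004 in the medium replicates. The CpdA and medium libraries did not overlap, CpdA above, for 39 of the 44 genes and for 22.9% of all tested genes. CpdA lay wholly below for 1 of the 44 and for 21.0% of all tested genes. In sum the 44 genes took 0.820% of medium counts and 0.954% of CpdA counts.

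Genes of the same pathway outside the 44 were taken from lists drawn up by function, with earlier results of these data known, so their counts are also a description. Over 5 lists, 96 of 137 tested genes rose and 6 fell, with a median log2 fold change of 0.19. Without medium replicate 1 the number that fell was 1, and it was 2 without medium replicate 3, CpdA replicate 1 or CpdA replicate 3. Of the small-subunit list 33 of 44 rose and 2 fell, and of the large-subunit list 41 of 52 rose and 1 fell. Their medians were 0.19 and 0.22. Esf1 (log2 fold change 0.40), the UTP-A subunit gene Utp4 (0.37) and Pwp2 (0.36) led the first, and Riok1 (-0.11), a kinase of the late particle, and Tsr3 (-0.16) fell. Both missed the threshold without medium replicate 1 or 3 or CpdA replicate 1 or 3. Wdr74 (0.45), the helicase gene Ddx51 (0.45) and Nmd3 (0.40), the export adaptor of the large subunit, led the second, and Nop53 fell (-0.14, from 509 ± 4 to 466 ± 2 CPM, SD, n = 3).

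In the snoRNP assembly list 4 of 11 rose and 0 fell (median 0.14). Its leading genes were Znhit6 (log2 fold change 0.36), Snu13 (0.29), which codes for a core protein of box C/D snoRNPs, and Tgs1 (0.24), which caps snoRNAs. In a list of genes of the RNA exosome, the nuclease that trims precursor ends, its cofactors and the separate nuclease gene Xrn2, 9 of 14 rose and 2 fell (median 0.17). The exosome subunit genes Exosc2, Exosc7 and Exosc1 rose by 0.44, 0.28 and 0.27, while the subunit gene Exosc8 (-0.10) and the cofactor gene Mphosph6 (-0.16) fell. Without medium replicate 1 or CpdA replicate 3 none of this list fell (edgeR adjusted p under 0.05), and 1 did without medium replicate 3 or CpdA replicate 1. For RNA polymerase I and its factors 9 of 16 rose and 1 fell (median 0.16). Polr1b, its second largest subunit, rose by 0.46 on the log2 scale, from 43.0 ± 4.2 CPM (SD, n = 3) to 59.9 ± 7.0 CPM. Ubtf, the factor that opens ribosomal DNA, and Taf1d, part of its promoter complex, each rose by 0.31, and the termination factor gene Ttf1 fell (-0.14). The call of Ttf1 was also lost when medium replicate 1 or 3, or CpdA replicate 1 or 3, was left out.

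**Figure D5:**
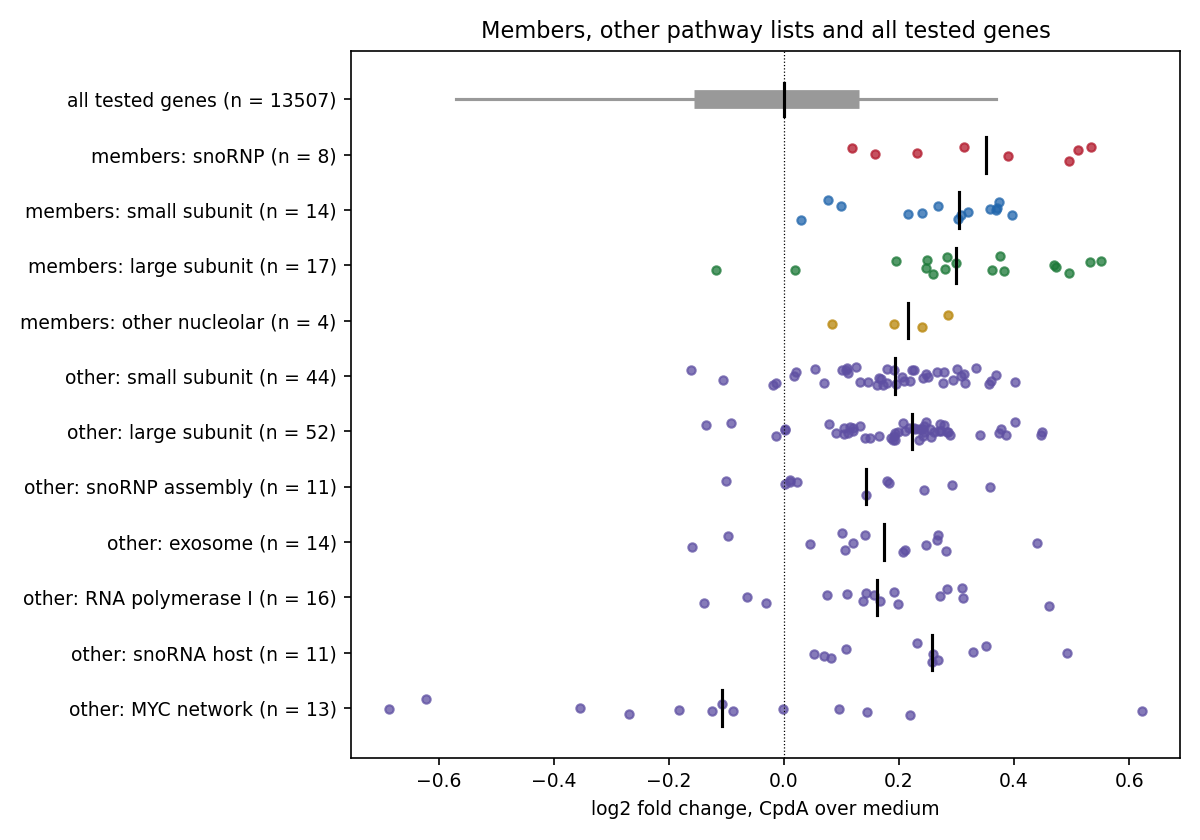
Log2 fold change of CpdA over medium (x axis) for genes of each list (points; vertical ticks are medians) and for all tested genes (thick bar 25th to 75th percentile, thin line 5th to 95th percentile, tick the median). Lists of the pathway have medians from 0.14 to 0.35, and the MYC network list has a median of -0.11.

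A list of 11 proliferation genes moved with these genes, and its part in the result was not tested. All 11 rose, with a median log2 fold change of 0.18, and their summed level was 3682 to 3855 CPM in medium and 4240 to 4297 CPM with CpdA (exact permutation p = 0.1, two-sided, the smallest that 3 libraries against 3 can give; 0.2 adjusted over 10 lists). Mki67, a marker of cycling cells, went from 642 ± 17 to 721 ± 29 CPM (SD, n = 3). In the list of 7 CD4 T cell genes, 5 were lower and 1 was higher by the test over all genes. Their summed level was 2097 to 2142 CPM in medium and 2017 to 2069 CPM with CpdA (exact permutation p = 0.1, two-sided). Of the B cell markers, Ms4a1 rose from 2.16 ± 0.52 to 3.16 ± 0.51 CPM (SD, n = 3), by 0.54 on the log2 scale (edgeR adjusted p = 0.0349). Cd79a had 6.15 and 5.42 CPM and Cd79b 7.19 and 6.50 CPM in medium and CpdA, and neither passed. The summed levels of macrophage (4.69 to 5.68 and 4.16 to 4.25 CPM), dendritic cell (5.99 to 6.39 and 6.74 to 8.08 CPM) and plasma cell markers (14.2 to 16.5 and 10.6 to 12.4 CPM) did not overlap between medium and CpdA. The macrophage sum was nearly all Cd68 (5.05 and 3.92 CPM), the other markers of that list being too low to test. The plasma cell sum was nearly all Sdc1 (14.9 and 10.5 CPM), while Jchain was higher with CpdA (0.449 and 0.855 CPM) and did not pass. No dendritic cell marker passed the test over all genes. The part of these markers in the result was not tested.

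Reads shared with other genes could touch a few of these values. Transcripts that match at least 50% of a coding transcript at 90% identity or more were annotated for 7 of the 44 genes. Where those other genes had counts, these came to at most 0.235% of the member's own (Nop56). Counts were at hand for 3 of 5 such genes for Nop56, 4 of 7 for Npm1, 1 of 3 for Wdr12 and 1 of 1 for Gar1. For Fbl, Pes1 and Rrs1 they were at hand for none, so the bound does not cover reads lost to those genes. The sources used here do not give the strand setting of the counting. Exons of Tsr1 overlap those of Srr on the other strand over 32.3% of their length, those of Noc2l overlap Samd11 over 20.9% and those of Bysl overlap Ccnd3 over 9.4%. Srr and Samd11 had 4.51 and 3.20 CPM in medium. Ccnd3 had 294 CPM, above Bysl itself, and a log2 fold change of -0.07, so the level and the change of Bysl are uncertain.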

How the data were processed

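RNA of 6 libraries, 3 per group, was measured by sequencing of cDNA made with an NEBNext Ultra kit, per the labels' protocols. Per the file headers, the deposited values are read counts of each gene, not normalized, beside FPKM computed by the authors. Every FPKM could be rebuilt from the count, the deposited gene length and the library total, the largest relative error being 1.86e-07. Builds GRCm38 and mm10 and CASAVA 1.8 are named in the submitters' processing notes. The sources used here do not give the aligner, counter, annotation or strand setting. No column of per-sample values was left without a sample (0 columns).

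Counts were tested in R 4.3.3 with edgeR 4.0.16 (quasi-likelihood test, TMM scaling, robust dispersions, no covariates). Genes were kept by filterByExpr (minimum count 10, minimum total 15), and Benjamini-Hochberg adjustment covered 13507 genes. The SE of a fold change is its size divided by the square root of the F statistic. CPM used library totals. Exact permutation tests used SciPy 1.17.1, transcript matches BLAST 2.17.0, and alternatives DESeq2 1.42.0 and limma 3.58.1. On simulated counts of CpdA against medium (13385 genes), 59.2% of genes changed 1.25-fold were called, as were 12 of 13190 unchanged genes. The simulation changed few genes (98 by 1.25-fold, 49 by 1.5-fold and 48 by 2-fold), whereas 33.2% were called in the data. The share called among changed genes may therefore differ in the real test.

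The 44 genes, the lists and the tests were chosen with earlier results of these data known. Values in every library are given for Myc, for each gene that did not pass or fell, and, in each role, for the 3 genes with the highest and the 1 with the lowest fold change. From other lists, up to 3 called genes at each end are named, and Max and Mxd3 are named besides. Ribosome biogenesis lists held 139 genes, of which 2 (Riok2 and Exosc6) were not analysed here. Marker lists were CD4 T, CD8 T, B, NK, macrophage, dendritic, plasma, neutrophil and erythroid cells; the sums in medium and CpdA were 7.99 to 8.84 and 7.33 to 9.40 CPM (CD8 T), 0.0437 to 0.198 and 0 to 0.0467 (NK), 5.42 to 6.52 and 4.55 to 5.63 (neutrophil) and 0.346 to 0.846 and 0.317 to 0.424 CPM (erythroid), the others being given above; 1 further marker gene, and the sum that holds it, is not reported here. No library looked like a copy of another: chi-square divided by its degrees of freedom was 2.17 to 4.17 for pairs within a group.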

Additional observations from a re-analysis of the deposited data

How the results depend on the processing

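The fold changes of the 44 genes, the role medians and the counts of called genes were recomputed with other scalings (DESeq2 size factors, library size alone), no count filter, a CPM of at least 5 in 3 libraries, DESeq2, limma-voom, a replicate block and each library left out. Of 572 pairs of a gene among the 44 and an alternative, 564 kept direction and side of the threshold, and for 40 genes every alternative did. The 39 genes that rose became 38 to 40, and 1 fell under every alternative. Pes1, which did not pass, had a log2 fold change of -0.02 (without CpdA replicate 3) to 0.0465 (without CpdA replicate 2) with a library left out. Myc missed the threshold without 4 of the 6 libraries, Nob1 passed with library size alone (adjusted p = 0.0492) and without CpdA replicate 2, and Npm1 missed it with the replicate block (0.0545).

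For the other ribosome biogenesis genes, the 6 that fell became 2 with DESeq2, 3 with library size alone, 3 with no count filter, 2 with the replicate block and 1 to 6 with a library left out. The median log2 fold change of small-subunit genes was 0.27 to 0.36 with a library left out, that of large-subunit genes 0.28 to 0.33 and that of snoRNP genes 0.32 to 0.38. With only the bases before the start site, 1 of 37 promoters (2.7%) held CACGTG, against 9.87% for tested genes. Same-numbered libraries showed no shared deviation over all tested genes (correlations of -0.021, -0.015 and -0.001). The labels do not say whether the numbers pair the libraries, and these correlations cannot settle it. With the replicate block 38 of the 44 genes rose. Counts in single lists were added after seeing the data. Summed levels were recomputed with TMM scaling only, and count ratios, marker sums and the CD4 T cell marker counts were not recomputed. The cause of these changes was not tested.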
